A study of Mus musculus with 25 samples.

Results

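The syndecans Sdc1, Sdc3 and Sdc4 and the hyaluronan receptor Cd44 are 4 of the 22439 genes counted in single myeloid cells of the mouse spinal cord after injury. The 4 genes were selected on their measured levels by cell type, cluster and time point in these same libraries, so their values along those axes are given as a description with no test. The way the cells were sorted, which the choice did not use, was tested. The 25 libraries hold 30958 cells from lesion segments of 5 mm, each library from 1 to 3 pooled mice, and the library is the replicate throughout. Laminectomy alone (Ctrl) gave 2 of them. The injured cords were taken at 1 day (D1, 5 libraries), 2 days (D2, 4 libraries), 3 days (D3, 7 libraries), 10 days (D10, 5 libraries) or 21 days (D21, 2 libraries).

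Every mouse, the controls included, carried Cx3cr1CreERT2, an inducible Cre at a locus that microglia and monocytes use. In 12 libraries, called mixed here, the mice had this allele alone and YFP+ cells were sorted. The other 13 came from Cx3cr1CreERT2:R26tdTomato mice, which add a red reporter (RFP) that Cre switches on. Of these, 5 libraries of RFP+/YFP+ cells are called resident and 7 of RFP-/YFP+ cells infiltrating. The remaining library, at D3, has a title that says infiltrating and a sort label with both colours. It is called D3_conflict 1 and was kept out of the main fits. It entered only an alternative fit of the macrophage sort. Between mixed libraries and either of the other sorts, sort and strain differ together and cannot be told apart. Ages and the time of Cre induction are not given in the sources used here. Values are UMI counts summed over the cells of one type in one library and scaled by the UMIs of that sum (CPM, the usual counts-per-million unit), for sums of 20 or more cells.

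Syndecans are transmembrane proteins whose extracellular part carries heparan sulfate chains. The chains bind growth factors, chemokines, lipases and matrix proteins, and the short cytoplasmic tail binds PDZ adaptors and the actin skeleton. Sdc1 is best known from epithelia and plasma cells and also occurs in macrophages, Sdc3 from neural tissue, and Sdc4 from focal adhesions, where its tail binds protein kinase C alpha. CD44 binds hyaluronan and osteopontin, is linked to actin through ezrin, radixin and moesin, and is abundant on leukocytes that enter tissue.

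The deposited cell type codes carried the markers of the names used here. Microglia (13289 cells) had 9 of 9 microglia markers, and macrophages, which take in monocytes (12841 cells), had 8 of 9 macrophage and 5 of 8 monocyte markers. Dendritic-like cells (2712) had 8 of 8 dendritic cell markers, and neutrophil-like cells (2116) had 8 of 8 neutrophil markers. Cells per library numbered 155 to 3800 and UMIs 486649 to 33204422, with a median of 1577 to 11233 UMIs per cell. In all, 127 barcodes occurred in 2 or more libraries (254 cells). The macrophages of D3_mixed 3 stood apart from those of the other D3 libraries: 88.6% of them were in deposited cluster 9, against 3.76% in D3_infiltrating 1. D2_infiltrating 1 is labelled female and carries the deposited code of the male libraries. Its label was used.

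The genes lie on several chromosomes (GRCm38, GENCODE M21). Sdc1 (ENSMUSG00000020592.14) is at chr12:8771323-8793715 on the plus strand, and Sdc3 (ENSMUSG00000025743.14) at chr4:130792537-130826319 on the plus strand. Sdc4 (ENSMUSG00000017009.3) is at chr2:164424247-164443887 and Cd44 (ENSMUSG00000005087.17) at chr2:102811141-102901665, both on the minus strand. Within Sdc3 lie 2 antisense genes, Gm12970 and Gm26716, and within Cd44 the snRNA gene Gm23731. Cell Ranger, named in the submitters' processing notes, by default counts reads in the sense direction of a gene. The setting used is not given in the sources used here.

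Each gene had its own distribution over the 4 cell types. To compare shares of cells at equal depth, every cell was thinned to 2000 UMIs and shallower cells and D3_conflict 1 were left out (of shallow cells 3409 microglia, 496 macrophages, 55 dendritic-like and 511 neutrophil-like cells). Intervals are exact 95% binomial (Clopper-Pearson) and cover counting error only. A Cd44 UMI was found in 62.4% of neutrophil-like cells (58.8 to 66.0%), 27.0% of macrophages (26.1 to 27.9%), 12.3% of dendritic-like cells and 3.38% of microglia. Without thinning these shares were 63.7%, 56.5%, 41.8% and 6.02%, at median depths of 2100, 8844, 11481 and 3062 UMIs. A Sdc1 UMI was found in 9.36% of macrophages (8.80 to 9.95%), 1.5% of dendritic-like cells, 0.989% of neutrophil-like cells and 0.0304% of microglia (3 of 9872 cells). Unthinned, the Sdc1 share was 21.8% in macrophages and 0.0377% in microglia. Sdc4 was found in 19.5% of macrophages and 11.4% of microglia but in 5.64% of dendritic-like and 1.69% of neutrophil-like cells. Sdc3 had the most even spread, with 13% of macrophages, 10.2% of microglia and 9.72% of dendritic-like cells, and 1.27% of neutrophil-like cells. These shares pool time points that the types hold unequally. As means over libraries, Sdc3 was at 12.5, 7.08 and 6.83% in macrophages and 13.1, 8.72 and 11.2% in microglia at D2, D10 and D21. At D2 Sdc4 was at 12.9% in dendritic-like cells and 8.41% in microglia. At D21 Sdc4 was at 8.70% in dendritic-like cells (1 library) and 3.14% in microglia. Sdc3 was at 7.91, 13.9 and 8.70% in dendritic-like cells at D1, D2 and D21, and at 7.26% in microglia at D1. Cd44 was at 7.10 and 6.56% in macrophages and 14.8 and 17.4% in dendritic-like cells at D10 and D21. The order of the types by Sdc3 thus turned at several time points. So did that of microglia and dendritic-like cells for Sdc4, at D2 and D21, and of macrophages and dendritic-like cells for Cd44, at D10 and D21.

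**Figure D1:**
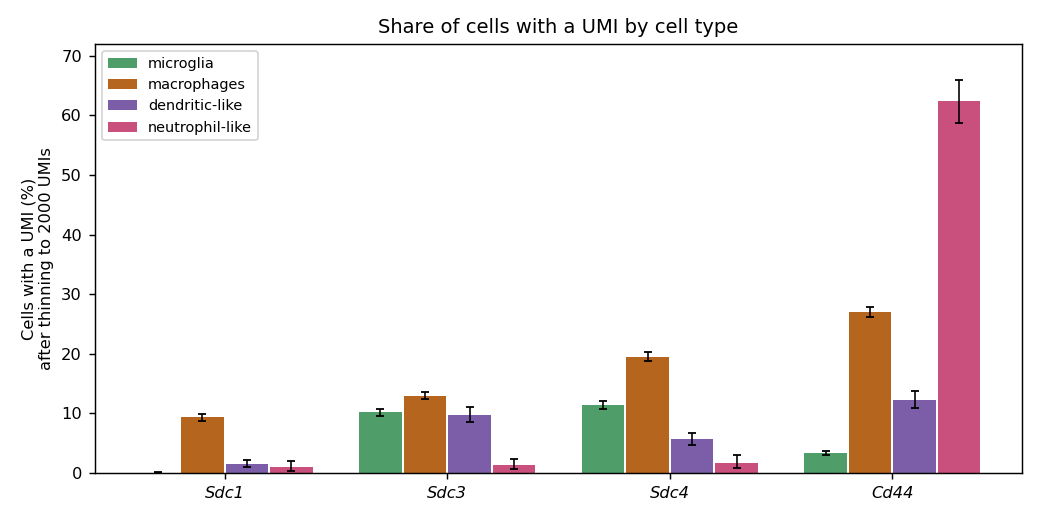
Share of cells with at least 1 UMI of each gene after thinning every cell to 2000 UMIs, by cell type (y axis, percent; bars, all cells pooled; error bars, exact 95% binomial intervals). Cd44 is highest in neutrophil-like cells (62.4%) and Sdc1 in macrophages (9.36%), with Sdc1 in 0.0304% of microglia.

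Over libraries, Sdc1 ranged from 0 to 133 CPM in macrophages (median 23.9, 19 libraries), from 0 to 21.8 in dendritic-like cells (9 libraries), from 0 to 8.43 in neutrophil-like cells (4 libraries) and from 0 to 0.629 in microglia (19 libraries). The range of macrophages overlaps that of each other type, and D3_mixed 3 (3.40 CPM) and D1_mixed 1 (21.2 CPM) also lie within the dendritic-like range. Cd44 spanned 286 to 812 CPM in neutrophil-like cells, 38.3 to 368 in macrophages, 22.5 to 171 in dendritic-like cells and 2.70 to 47.8 in microglia, and neighbouring types in that order overlapped. Sdc4 spanned 13 to 832 CPM in macrophages, 0 to 497 in microglia, 0 to 95.1 in dendritic-like cells and 0 to 17.6 in neutrophil-like cells. Sdc3 spanned 18.9 to 160 CPM in macrophages, 20.3 to 183 in microglia, 12.5 to 62.3 in dendritic-like cells and 0 to 16.2 in neutrophil-like cells. Sdc2, the remaining syndecan, reached at most 1.47 CPM in any library of any type. It was close to absent where the other syndecans were read.

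Within macrophages, Sdc1 and Cd44 were concentrated in the same deposited clusters. Sdc1 was at 132 CPM in cluster 12 and 123 CPM in cluster 11, at 34.9 CPM in cluster 8, and at 3.65 CPM in cluster 9, all libraries pooled. Cd44 was at 578 CPM in cluster 12, 310 in cluster 11, 145 in cluster 8 and 41.3 in cluster 9. The difference between clusters also appeared inside one library: in D3_infiltrating 1, Sdc1 was at 126 CPM in cluster 11 (921 cells) and 109 in cluster 12 (370 cells), against 24.0 in cluster 8 (192 cells) and 3.78 in cluster 9 (61 cells). In the same library Cd44 was at 295, 670, 107 and 30.2 CPM in clusters 11, 12, 8 and 9. Cluster 13 split the pair, with Cd44 at 244 CPM and Sdc1 at 3.42 CPM (234 cells). Pooled over libraries, Sdc4 was at 178, 156 and 133 CPM in clusters 11, 8 and 12 and at 50.3 CPM in cluster 9, of whose 3554 cells 2676 are from D3_mixed 3. Inside D3_mixed 3 it was at 54.7 CPM in cluster 11 (10 UMIs), 69.1 in cluster 8 and 48.0 in cluster 9, and inside D3_infiltrating 1 at 77.5, 82.5 and 54.8 CPM, so the gap was narrower within a library. Sdc3 was at 115 CPM in cluster 11, 74.6 in cluster 8, 65.1 in cluster 12 and 39.5 in cluster 9. Among microglia, pooled Sdc4 was highest in clusters 2 and 5 (233 and 181 CPM), which hold most D1 microglia, and lowest in cluster 7 (9.23 CPM), with 54 of its 67 cells from D2_resident 1, and cluster 1 (11.9 CPM), which holds all microglia of both controls. This order mixes time with cluster. Inside D2_resident 1 Sdc4 was at 101, 68.7, 90.0, 46.9, 40.0 and 9.24 CPM in clusters 2, 5, 4, 3, 6 and 7. Cluster 14 had the highest Sdc4 level of all, 422 CPM, but its 118 cells had a median of 1488 UMIs.

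**Figure D2:**
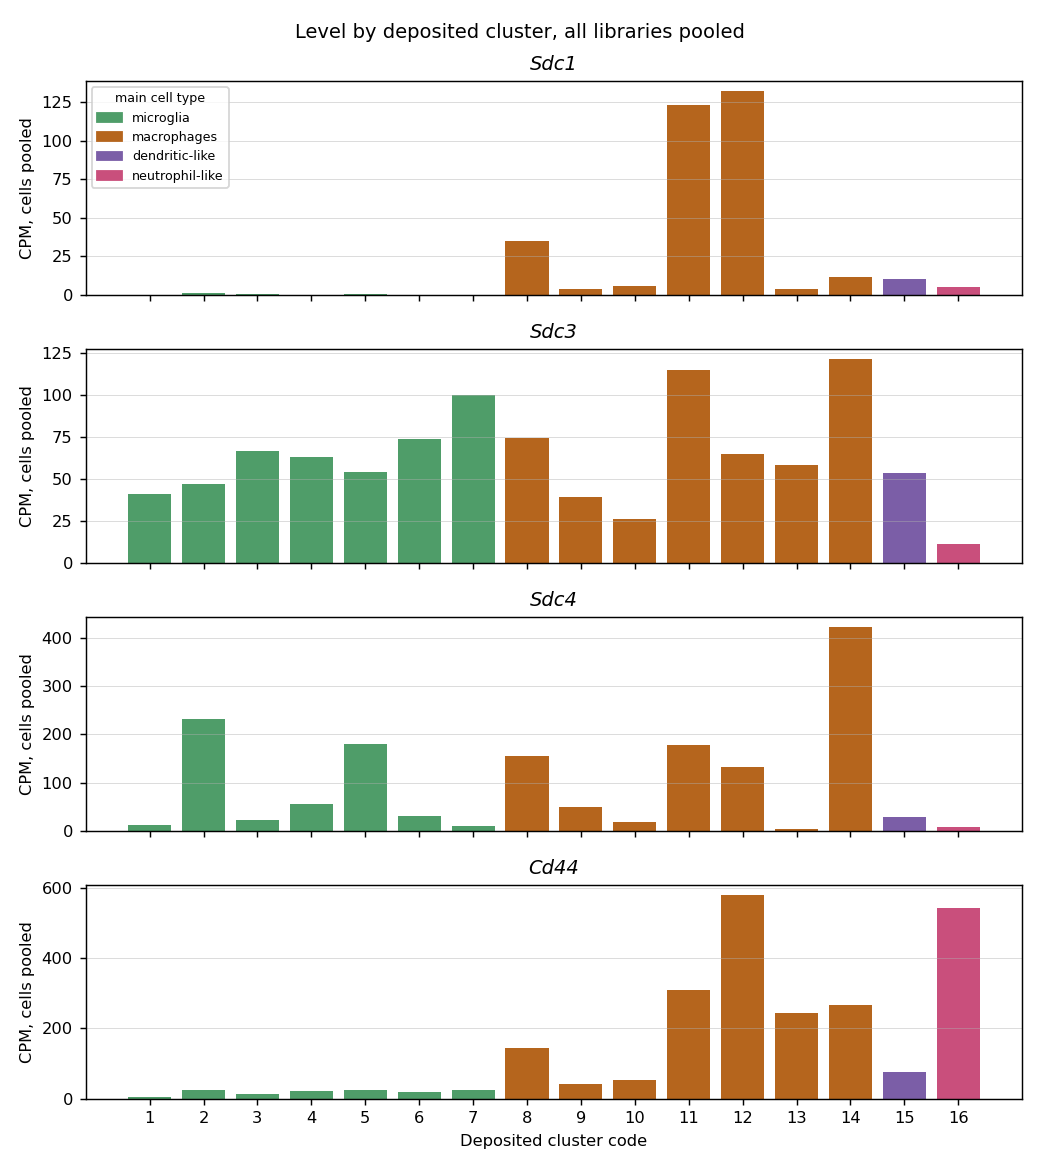
Level of each gene (y axis, CPM over the pooled cells of a cluster, linear scale from 0, a separate scale per gene) in the 16 deposited clusters, coloured by the main cell type. Sdc1 stands out in clusters 11 and 12 (123 and 132 CPM), Cd44 in clusters 12 and 16 (578 and 542 CPM), and Sdc3 is above 10 CPM in all 16 clusters.

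Sdc4 was the member with the largest difference in microglia after injury. Its level was 10.7 and 15.6 CPM in the control libraries and 132, 178 and 497 CPM in the D1 libraries, so the groups did not overlap. The share of all genes that separate these few libraries as fully was not counted. At D2 it was 59.1, 54.7 and 37.0 CPM, and at D3 it was 15.9, 23.6, 16.5, 23.6 and 57.8 CPM. The D10 libraries lay at 30.2, 25.5 and 23.8 CPM and the D21 library at 15.7 CPM. These are the resident and mixed libraries. Microglia of the infiltrating sort, 36 cells at D10 and 41 at D21, were at 0 and 31.2 CPM (0 and 4 UMIs) and entered no fit. The high levels were thus at D1, and at D3 4 of 5 libraries were at or below 23.6 CPM. The fitted log2 difference of D1 from Ctrl was 5.04 ± 0.65 (SE; 3 and 2 libraries), and that of D3 from D1 was -3.33 ± 0.42 (5 and 3 libraries). Without D1_mixed 3, the highest library, the first of these was 4.26, without the cells of cluster 2 it was 4.87, and in the mixed libraries alone it was 6.22. The D1 libraries are all mixed and male, and the controls are 1 mixed female and 1 resident male library, each group from its own sequencing pools, so pool and injury cannot be told apart here. In the mixed libraries alone the control is female, so the sex term of that fit rests on the 2 D2 libraries. The male one of these held 23 microglia. Every D1 against Ctrl value from the mixed libraries alone takes in this D2 difference.

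Sdc4 was high in both clusters that held most D1 microglia. In D1_mixed 1, D1_mixed 2 and D1_mixed 3, Sdc4 was at 127, 178 and 474 CPM in cluster 5 and at 254, 251 and 522 CPM in cluster 2. Cluster 2 held 15%, 14.9% and 46.2% of their microglia. Cluster 5 cells of later libraries had less Sdc4: 76.8 and 68.7 CPM at D2, 9.38 to 103 CPM at D3 (4 libraries) and 19 and 37.9 CPM at D10. The level differed by time within this cluster as well.

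The 250 bases before the RefSeq start of Sdc4 and of Cd44, the pair that was high in D1 microglia, are shown 5′ to 3′ from RefSeq sequence (GRCm38.p6). They lie at chr2:164443189-164443438 and chr2:102901666-102901915, both on the minus strand, and neither overlaps a GENCODE exon of its gene. The Sdc4 window is within an intron of a longer GENCODE transcript of Sdc4. Capitals mark matches to the kappaB consensus and to TATAA, which do not overlap. Both strands were searched for these and for 2 further motifs, TGANTCA (AP-1) and GGGCGG (a GC box).
Sdc4: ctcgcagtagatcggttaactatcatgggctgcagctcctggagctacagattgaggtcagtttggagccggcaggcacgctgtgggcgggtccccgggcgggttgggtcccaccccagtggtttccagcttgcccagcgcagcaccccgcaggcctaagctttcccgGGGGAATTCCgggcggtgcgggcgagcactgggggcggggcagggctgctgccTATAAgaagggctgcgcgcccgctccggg
Cd44: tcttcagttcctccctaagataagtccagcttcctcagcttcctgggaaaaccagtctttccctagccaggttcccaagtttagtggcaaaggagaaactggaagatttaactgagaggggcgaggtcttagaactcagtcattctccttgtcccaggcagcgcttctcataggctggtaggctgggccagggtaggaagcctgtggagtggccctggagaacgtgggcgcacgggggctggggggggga
Sdc4 held 1 kappaB match, 82 to 73 bases before the start, and 1 TATAA, 29 to 25 bases before it. The Cd44 window held neither. Among 32851 mouse windows of this length, 7.25% held a kappaB match and 22.8% a TATAA. The motif TGANTCA, present in 6.75% of all windows, was found in none of the 4 genes' windows. GGGCGG, present in 32.7%, occurred 4 times before Sdc4, 3 times each before Sdc1 and Sdc3, and not before Cd44. The Sdc1 window overlaps a GENCODE exon of Sdc1 by 73 bases. Of the other members, Sdc1 had 1 kappaB match and 2 matches to TATAA, and Sdc3 had neither. These are matches of letters and say nothing of binding.

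Cd44 was also low in control microglia, at 4.29 and 2.70 CPM, and was at 17.5, 24.8 and 47.8 CPM at D1. It was at 14.2, 15 and 22.2 CPM at D2, 4.12 to 20.1 CPM at D3 (median 15.2, 5 libraries), 15.5, 20.2 and 19.4 CPM at D10 and 22.9 CPM at D21. Only the lowest of the D3 libraries overlapped the controls. The fitted log2 difference was 3.75 ± 0.55 for D1 against Ctrl and -1.18 ± 0.36 for D3 against D1, and the second was -0.66 without D1_mixed 3. Between D3 and D10 the fitted difference was 0.32 ± 0.37.

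Markers of other cells were read in the same microglial sums. The monocyte list (8 genes) summed to 8.40 and 10.8 CPM in the controls and 6.34 to 32.5 CPM at D1, against 2581 to 6149 CPM in D1 macrophages, and 1 of its genes was at 0 in each D1 library. The macrophage list (9 genes, of which Fn1 and Thbs1 are also among the ligands described further down) summed to 432 to 759 CPM in the controls and 735 to 962 CPM at D1, with at most 1 gene at 0 at D1. The neutrophil list (8 genes) was lower at D1 (38.3 to 106 CPM, 2 to 5 genes at 0) than in the controls (203 to 222 CPM). Sdc1, a gene of macrophages here, had 1 UMI among the 12389508 UMIs of D1 microglia. It had 16 among the 647081 of the macrophages of 2 of the same 3 mixed libraries, 5 in 3 cells and 11 in 4 cells. The ratio per UMI was 306, a description that rests on 1 microglial UMI and few macrophages. The part of these markers in the Cd44 and Sdc4 levels was not tested.

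Sdc3 did not follow the time course of Sdc4 in microglia. It was at 27.5 and 81.5 CPM in the controls and at 42.9, 46.2 and 38.8 CPM at D1, inside the range of the controls. At D3 it ranged from 20.3 to 183 CPM (5 libraries), and at D10 it was 55.9, 47.6 and 44.4 CPM. The D1 libraries are all mixed, and the mixed control was at 27.5 CPM, below all of them, while the resident control was above all of them. The fitted log2 difference of D1 from Ctrl was 0.47 ± 0.61 without a term for the sort, 1.24 with one and 1.51 in the mixed libraries alone. It was -0.19 without Ctrl_mixed 1 and 1.97 without Ctrl_resident 1. The spread at Ctrl and D3 lay between the sorts, as given further down. Sdc1 had at most 1 UMI in any microglial library.

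**Figure D3:**
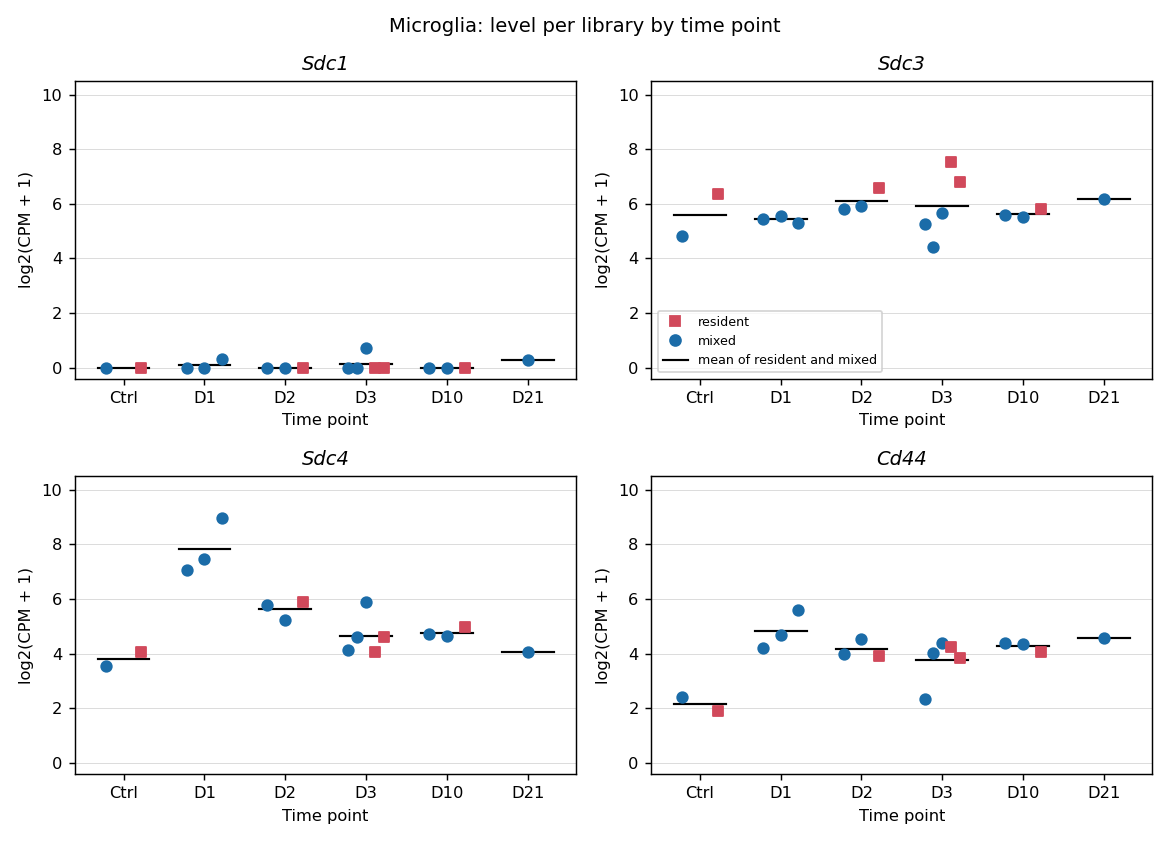
Level of each gene in microglia of the resident and mixed libraries (y axis, log2 of CPM + 1; x axis, time point; each symbol 1 library, black lines the mean of the log2 values). Sdc4 and Cd44 are higher in all D1 libraries than in the controls, Sdc3 is split by sort, and Sdc1 stays near 0.

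In the fit over the microglial libraries, 23.9% of 10801 genes were called higher and 22.7% lower at D1 than in Ctrl (edgeR, adjusted p below 0.05). Of 98 other genes of syndecan and CD44 biology in the tables, 72 passed the filter on low counts. Among them 22 (30.6%) were higher, beside the 23.9%, and 16 (22.2%) lower, close to the 22.7%. Their median log2 difference was 0.10, against -0.01 over all genes.

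The 4 largest rises among genes at 20 CPM or more were all of ligands. Spp1, which encodes the CD44 ligand osteopontin, rose from 14.4 ± 6.40 CPM (SD, n = 2) to 24220 ± 12240 CPM (SD, n = 3), a log2 difference of 11.61 ± 0.69 (edgeR adjusted p = 2.43e-08). Fn1, fibronectin, rose by 6.66 ± 0.87 (edgeR adjusted p = 2.44e-05), from 6.74 to 333 CPM. Lpl, the heparan sulfate-bound lipoprotein lipase, rose by 4.71 ± 0.34 (edgeR adjusted p = 1.78e-07). Pf4, the platelet factor 4 chemokine, rose by 6.96 ± 1.18 (edgeR adjusted p = 0.000190). In all 7 of 14 tested ligands were higher and 0 lower. Without Ctrl_mixed 1, without Ctrl_resident 1 and in the mixed libraries alone, 23, 22 and 8 pathway genes were called in place of 38. In the mixed libraries alone, with 1 control, the edgeR adjusted p of Pf4 was 0.0885.

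Partners of the cytoplasmic tails moved in both directions, with 7 of 14 higher and 4 lower. The fall of Prkca, protein kinase C alpha, was from 49.9 to 2.50 CPM (log2 difference -3.58 ± 0.78, edgeR adjusted p = 0.00137). Src, a kinase that phosphorylates syndecan tails, was at 24.5 ± 0.49 CPM in the controls and 1.82 ± 1.30 CPM at D1 (SD). Its difference was -3.12 ± 0.58 (edgeR adjusted p = 0.000434). In the mixed libraries alone the fitted value was 2.14, but the sex term there rests on the D2 libraries, so it cannot be read as a rise. Among hyaluronan genes Hyal1, a lysosomal hyaluronidase, fell from 31.4 to 0.0774 CPM (-7.50 ± 1.14, edgeR adjusted p = 8.06e-05), and the difference was -2.88 in the mixed libraries alone (edgeR adjusted p = 1). Of the enzymes that build heparan sulfate, 2 of 20 were higher and 6 lower, and Hs6st1, a 6-O-sulfotransferase, fell from 46.7 to 10.9 CPM (-1.44 ± 0.44, edgeR adjusted p = 0.0136), a call lost in 3 alternatives, the mixed libraries alone among them (-2.40, edgeR adjusted p = 0.353). The shedding and cleavage enzymes had 2 of 10 higher and 1 lower, the hyaluronan genes 3 of 10 higher and 3 lower, and the other proteoglycans 1 of 4 higher and 2 lower.

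From D1 to D3, 8 of the 72 pathway genes (11.1%) were higher and 11 (15.3%) lower, beside 8.62% and 10.2% of all genes. Their median log2 difference was 0.03, against 0.02 over all genes. Apoe, a heparan sulfate-binding apolipoprotein, rose from 1056 ± 247 CPM (n = 3) to 16140 ± 5407 CPM (n = 5; 3.86 ± 0.40, edgeR adjusted p = 1.87e-05). Hmmr, a hyaluronan-binding protein of dividing cells, rose by 3.87 ± 0.80 (edgeR adjusted p = 0.00352), a call lost in 3 alternatives, each of them within mixed libraries. Lgals9 and Ncstn, a galectin that binds CD44 and a gamma-secretase subunit, rose by 1.40 ± 0.28 and 1.24 ± 0.30 (edgeR adjusted p = 0.00246 and 0.00871). Lpl fell again by 1.76 ± 0.21 (edgeR adjusted p = 6.73e-05), and Srgn, the granule proteoglycan serglycin, by 1.57 ± 0.28 (edgeR adjusted p = 0.00113). Cd74, a CD44 partner, and Ccl5, a heparan sulfate-binding chemokine, fell by 1.78 ± 0.31 and 2.40 ± 0.77 (edgeR adjusted p = 0.000939 and 0.0370), and 8 of 27 alternatives lost the call of Ccl5. In the mixed libraries alone, without D1_mixed 2 and without D3_resident 2, the number called was 11, 11 and 12 in place of 19.

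From D3 to D10, 5 pathway genes (6.94%) were higher and 4 (5.56%) lower, beside 2.96% and 3.92% of all genes, with medians of 0.24 and 0.05. Apoe rose further by 1.88 ± 0.33 (edgeR adjusted p = 0.00346), Lpl by 1.52 ± 0.21 (edgeR adjusted p = 0.000789) and Cd74 by 1.63 ± 0.30 (edgeR adjusted p = 0.00613). Hs6st1 rose by 1.33 ± 0.38 (edgeR adjusted p = 0.0426). Spp1 fell by 1.78 ± 0.35 (edgeR adjusted p = 0.00805), Lgals9 by 1.16 ± 0.28 (0.0211), Ezr, the actin linker ezrin, by 1.34 ± 0.32 (0.0234) and Gipc1, a PDZ adaptor, by 0.84 ± 0.24 (0.0437). Of 28 alternatives, 15 lost the call of Hs6st1, 14 that of Gipc1, 7 that of Ezr, 6 that of Lgals9 and 3 that of Spp1. The macrophage marker list in these microglial sums was at 735 to 962 CPM at D1, 2130 to 4306 CPM at D3 and 2991 to 3704 CPM at D10, with at most 1 of its 9 genes at 0, and the monocyte list at 0 to 45.3 CPM at D3 and 2.22 to 13.5 CPM at D10. Their part in the changes from D1 to D10 was not tested. With the deposited sequencing pool as a term Cd74 turned to -0.50 and none of the 72 was called, and without D10_mixed 1 or D10_mixed 2 the number was 3 and 2.

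In macrophages all 4 members were lower at D10 than at D1. The Sdc1 level at D1 was 133 and 109 CPM in the infiltrating and 21.2 and 26.8 CPM in the mixed libraries. It was 82.5, 23.9 and 84.4 CPM at D2, and at D3 it was 98.3 CPM in D3_infiltrating 1 and 3.40 CPM in D3_mixed 3. In resident libraries it was 35.3 CPM at D2 and 39.4 and 31.5 CPM at D3, and D3_conflict 1 had 89.4 CPM. At D10 it was 0, 0, 1.63 and 0 CPM, and 0.927 CPM in the resident library, and at D21 1.47 and 0 CPM. Sdc1 was thus read in every macrophage library up to D3, and each later value above 0 is 1 UMI. The mixed sums at D1 are small, with 5 Sdc1 UMIs in 3 of 28 cells and 11 in 4 of 54 cells. Per UMI, within the mixed libraries, the D1 level was 37.5 times that of D10 (16 UMIs of 647081 against 1 of 1516080). This is a description that rests on 1 UMI at D10 and few cells at D1. Within the infiltrating libraries 3758 UMIs of 31155471 stood against 0 of 4640369, at least 187-fold higher at D1 when the group at 0 is set to a floor of 3 counts. Both within-sort values were chosen after seeing the data. Of 6 markers of plasma cells, which are known for SDC1, 5 were at 0 in the 3056 macrophages with Sdc1. The list summed to 0.721 CPM there and to 0.741 CPM in the 9785 without.

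The Sdc4 level in macrophages was 143, 345, 237 and 832 CPM at D1 and 42.4, 16.5, 13 and 23.3 CPM at D10, with no overlap. For this member and those below, the share of all genes that separate the D1 and D10 libraries as fully was not counted. The values in between were 360, 74.1 and 87.7 CPM at D2 and 73.4 and 48.5 CPM at D3. At D21 it was 39.7 and 71.7 CPM. The library D1_mixed 3, which had the highest Sdc4 level in microglia, also had the highest in macrophages. The fitted log2 difference of D10 from D1 was -4.09 ± 0.67 (4 and 4 libraries), -3.48 without that library and -2.84 with cells thinned to 2000 UMIs. In resident libraries Sdc4 was at 210 CPM at D2, 90.1 and 69 CPM at D3 and 50.1 CPM at D10.

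The Cd44 level was 265, 368, 182 and 343 CPM at D1 and 48.8, 69.4, 94.4 and 63.2 CPM at D10, again without overlap, with a fitted log2 difference of -2.07 ± 0.49. It was 364, 120 and 173 CPM at D2, 333 and 38.3 CPM at D3, and 53.0 and 50.8 CPM at D21. Resident libraries had 110 CPM of Cd44 at D2, 360 and 219 CPM at D3 and 45.4 CPM at D10. Sdc3 was at 72, 85.2, 46.6 and 87.6 CPM at D1 and 33.0, 44.6, 26.0 and 18.9 CPM at D10, a difference of -1.24 ± 0.37. The lowest D1 library of Sdc3 lay just above the highest at D10.

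**Figure D4:**
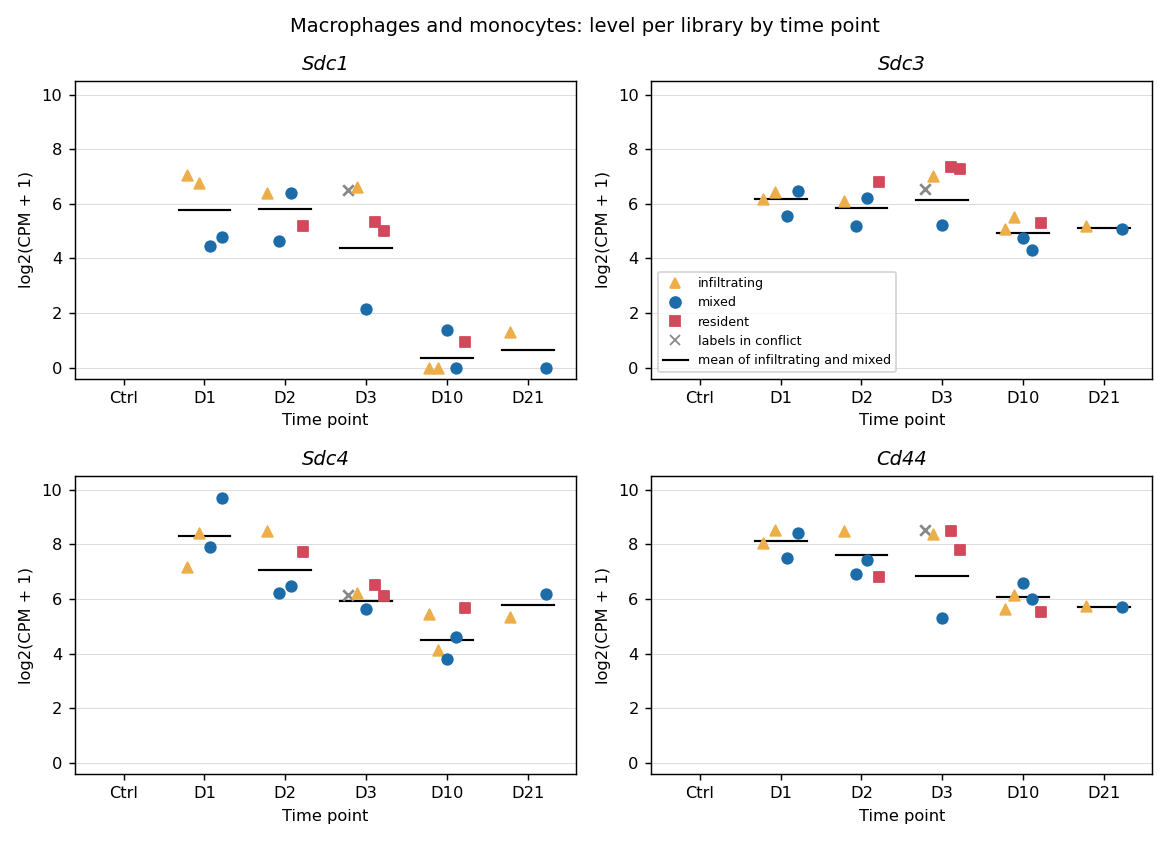
Level of each gene in macrophages (y axis, log2 of CPM + 1; x axis, time point; each symbol 1 library, black lines the mean of the log2 values of infiltrating and mixed libraries). Sdc1 is near 0 at D10 and D21, Sdc4 and Cd44 are lower in all D10 than in all D1 libraries, and the mixed D3 library is low for Sdc1, Sdc3 and Cd44.

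The makeup of the macrophages differed between these time points. At D1 the infiltrating libraries had 37.1% and 66.6% of them in cluster 11 and 39.2% and 9.71% in cluster 12. D1_mixed 1 and D1_mixed 3, with 28 and 54 macrophages, had 32.1% and 27.8% in cluster 2 and 14.3% and 24.1% in cluster 14. They had 10.7% and 29.6% in cluster 11. At D10, 10.9%, 57.8%, 39.6% and 44.1% were in cluster 3, most of whose cells carry the microglia code, and the microglia marker list summed to 998 to 3345 CPM at D10 against 291 to 1396 CPM at D1. In D10_infiltrating 1, where 78.7% were in cluster 9 and 10.9% in cluster 3, Sdc1, Sdc4, Cd44 and Sdc3 were at 0, 42.4, 48.8 and 33.0 CPM. In D3_mixed 3, with 88.6% in cluster 9, they were at 3.40, 48.5, 38.3 and 36.2 CPM. The part of the makeup in the differences by time was not tested.

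Within single clusters the members differed in how far their levels followed time. In cluster 12, Sdc4 was at 157 and 334 CPM in the D1 libraries, 386 and 99.8 CPM at D2, and 66.9 CPM in D3_infiltrating 1 and 65.3 CPM in D3_conflict 1. Cluster 11 of the same D1 and D3 libraries had 152, 365, 77.5 and 76.8 CPM of Sdc4. In cluster 12 Cd44 did not follow: it was at 421 and 643 CPM at D1, 583 and 576 CPM at D2 and 670 and 650 CPM in the same D3 libraries. Sdc1 in cluster 12 was at 171 and 168 CPM at D1, 108 and 176 CPM at D2 and 109 and 112 CPM at D3. Sdc3 there was at 47.6, 62.1, 56.6 and 65.9 CPM up to D2 and at 104 and 56.4 CPM at D3. At D3 cluster 12 was thus low in Sdc4 but not in Cd44.

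In the macrophage fit, 7.31% of 8577 genes were called higher and 7.04% lower at D10 than at D1 (edgeR, adjusted p below 0.05). Of 63 tested pathway genes 3 (4.76%) were higher and 10 (15.9%) lower, with a median log2 difference of -0.55 against 0.01 over all genes. Thbs1, thrombospondin 1, fell from 2085 ± 1614 CPM (SD, n = 4) to 7.57 ± 5.17 CPM (SD, n = 4), a log2 difference of -7.92 ± 1.00 (edgeR adjusted p = 0.000543). Pf4 fell by 6.15 ± 0.95 (edgeR adjusted p = 0.00193), Vegfa, the heparin-binding angiogenic factor, by 4.01 ± 0.93 (edgeR adjusted p = 0.0134) and Srgn by 3.38 ± 0.48 (edgeR adjusted p = 0.00110). Apoe rose by 3.52 ± 0.67 (edgeR adjusted p = 0.00576), Hpse, the heparanase that cuts heparan sulfate chains, by 1.96 ± 0.36 (edgeR adjusted p = 0.00482) and Slc35b2, a transporter of the sulfate donor, by 1.28 ± 0.39 (edgeR adjusted p = 0.0422), a call that 11 of 23 alternatives lost. By list, 1 of 11 ligands was higher and 4 lower, 0 of 13 cytoplasmic partners higher and 3 lower, and 1 of 18 heparan sulfate enzymes higher and 1 lower. Without D1_infiltrating 2 the number called was 8 in place of 13.

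The sort was the axis on which the members were tested, and no member passed in the main edgeR fits. Of 7 tests in edgeR, 0 had an adjusted p below 0.05 and 3 an unadjusted p below 0.05, and by DESeq2 2 passed after adjustment. Few genes of any kind passed: 0.148% of 10801 genes for mixed against resident microglia and 0.0117% of 8577 for infiltrating against mixed macrophages.

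Sdc3 was the nearest to a call. In microglia it was at 105 ± 47.8 CPM in resident libraries (SD, n = 5) and 45.0 ± 13.6 CPM in mixed libraries (SD, n = 12), a log2 difference of mixed from resident of -1.27 ± 0.26 (edgeR adjusted p = 0.0643). The resident libraries were above every mixed library at each of the 4 time points that had both: 81.5 against 27.5 CPM in Ctrl, 95.2 against 54.7 and 59.2 CPM at D2, 183 and 111 against 37.1, 20.3 and 49.7 CPM at D3, and 55.9 against 47.6 and 44.4 CPM at D10. The direction was the same in 23 of 23 alternatives. Its adjusted p was 0.00170 by DESeq2, 0.000516 with no low-count filter, 0.0421 with thinned cells and 0.00481 without D10_resident 1, and lay between 0.0517 and 0.458 in the others. Among the libraries of the microglial fit each sequencing pool held only 1 sort, so pool, strain and sort cannot be told apart. The same order was seen inside cluster 3, with 171 and 138 CPM in the resident and 37.1, 25.9 and 38.8 CPM in the mixed libraries of D3. In macrophages of resident libraries Sdc3 was at 110 CPM at D2, 160 and 154 CPM at D3, and 38.0 CPM at D10, inside the 18.9 to 44.6 CPM of the other D10 libraries.

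**Figure D5:**
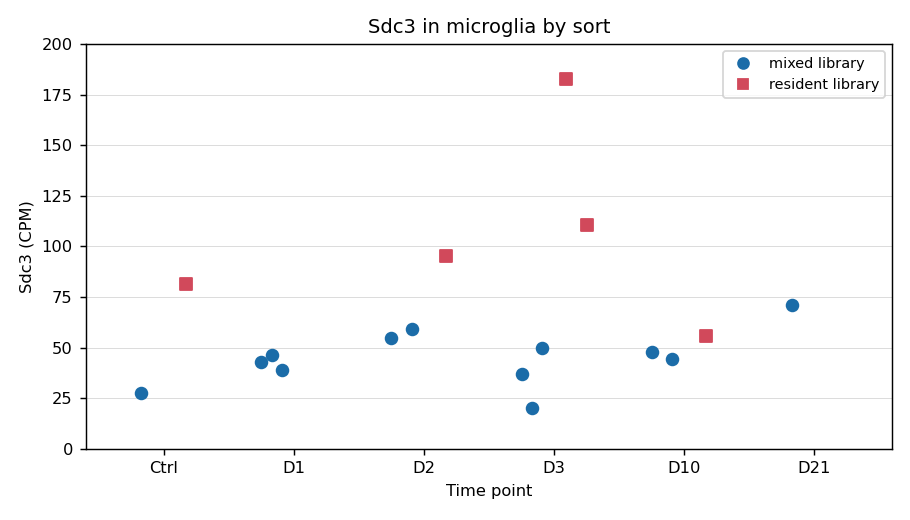
Sdc3 in microglia (y axis, CPM, linear from 0) by time point, each symbol 1 library, squares resident and circles mixed. At Ctrl, D2, D3 and D10 every resident library is above every mixed library; D1 and D21 have mixed libraries alone.

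For Sdc4 and Cd44 in microglia the log2 differences of mixed from resident were 0.02 ± 0.36 and 0.21 ± 0.32 (edgeR adjusted p = 1 for both). The resident library was above every mixed one for Sdc4 in Ctrl, at D2 and at D10 but not at D3, and the difference was -0.25 without D3_mixed 3. In macrophages Sdc1 was at 60.6 ± 58.2 CPM in infiltrating (SD, n = 7) and 20.2 ± 28.4 CPM in mixed libraries (SD, n = 8), a difference of 2.79 ± 0.63 (edgeR adjusted p = 0.170). The value was 1.92 without D3_mixed 3, 1.91 without D3_infiltrating 1 and -1.29 with the pool as a term. The adjusted p was 0.0367 by DESeq2 and 0.0372 by edgeR without D1_infiltrating 1, and lay up to 0.965 in the other alternatives. Cd44, Sdc3 and Sdc4 differed by 0.67 ± 0.34, 0.59 ± 0.26 and 0.04 ± 0.47 (edgeR adjusted p = 0.511, 0.437 and 0.980). The Cd44 difference was 1.45 with cells thinned to 2000 UMIs (edgeR adjusted p = 0.0765), 1.15 without D21_mixed 1, 1.13 without D21_infiltrating 1, 0.37 without D3_mixed 3 and 0.37 without D3_infiltrating 1. That of Sdc3 was 0.99 without D21_mixed 1 and 0.96 without D21_infiltrating 1.

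The genes most like each member were taken by Pearson correlation of log2(CPM + 1) over the summed libraries, a description over points that share libraries and time points. Over 17 microglial sums and 5344 genes, Sdc3 was nearest to Bst2 (r = 0.96), Ifit3, Isg15, Rsad2 and Ifitm3 (r = 0.87). Sdc4 was nearest to Tomm5 (r = 0.91), Ftsj3, Srgn, Mrto4 and Ltv1, and Cd44 to Rpl24 (r = 0.89), Rps27a, Rpl11, Rps13 and Gde1. Over 15 macrophage sums and 5319 genes, Sdc1 was nearest to Gch1 (r = 0.97), Tgm2, Ms4a6d, Arpc2 and Gpat3, and Sdc4 to Id2 (r = 0.96), Cxcl3, Furin, Ier3 and Atf4. Sdc3 was nearest to Ifi207 (r = 0.94), Parp12, Myo1c, Gna13 and Fcgr1, and Cd44 to Sbno2 (r = 0.96), Mcl1, Eps8, BC005537 and Dpep2. Among the members themselves, r in macrophages was 0.67 to 0.89 over the 6 pairs. In microglia it was 0.65 for Sdc4 with Cd44, 0.04 for Sdc3 with Cd44 and -0.17 for Sdc3 with Sdc4.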

How the data were processed

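The 25 libraries of myeloid cells are 3′ libraries of 10x Genomics, per the labels' protocols. The deposited values are raw UMI counts of each gene in each cell, which the authors made with Cell Ranger 3.1.0 on GRCm38 (mm10), per the submitters' processing notes, and a table with the percent of mitochondrial counts and codes for cell type, cluster and pool. The pool code is headed SLX and is read here as the sequencing pool. Cell filters and annotation are not given in the sources used here. No cell was removed (lowest 713 UMIs, highest mitochondrial percent 22.6), doublets were not called, and no correction was made for free RNA. The authors' codes were named by markers at 20 or more CPM and 2 times the other cells (5 CPM added to both), limits set after the data were seen.

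Counts were summed per cell type and library (20 or more cells) and fitted with edgeR 4.0.16 (TMM, filterByExpr, quasi-likelihood, Benjamini-Hochberg over all genes), with time and sex as terms, and sort for the sort contrasts. Microglia were fitted over resident and mixed libraries (17 sums, 135097 to 7794902 UMIs) and macrophages over infiltrating and mixed ones (15 sums, 235999 to 22068469 UMIs). Whether resident and infiltrating libraries share mice is not given in the sources used here, and p-values measure only the spread between these libraries. The fitting script was tested on simulated data. Members and lists were chosen with earlier results of these data known. Of the lists, each contrast names the 4 largest rises and 4 largest falls with an adjusted p below 0.05 and 20 or more CPM in the higher group; each member names the 5 most correlated genes with a mean of 20 or more CPM. Alternatives were DESeq2 1.42.0, its size factors, no filter, 50 cells, leaving out each library, no cluster 2, thinned cells, sort, pool and replicate number terms, mixed libraries alone and D3_conflict 1 added.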

Additional observations from a re-analysis of the deposited data

Results flagged for a closer look

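For each of the 4 members, each group of 4 to 10 libraries of one cell type and time point was searched for a library far from the others. These groups were D3 microglia and D1 and D10 macrophages. That gave 12 searches over shared libraries, and chance flags about 1 in 20. Sdc4 in D3 microglia was at 57.8 CPM in D3_mixed 3, against 15.9 to 23.6 CPM in the other 4 libraries. In that library Sdc4 was at 103 CPM in cluster 5 and 25.8 CPM in cluster 3. Sdc1 in D3 microglia was at 0.629 CPM in the same library and 0 in the others, and Sdc1 in D10 macrophages was at 1.63 CPM in D10_mixed 1 and 0 in the others. Each of these Sdc1 values is 1 UMI.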

How the results depend on the processing

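In the time contrasts, the fitted differences of Sdc4 and Cd44 in microglia (D1 against Ctrl, D3 against D1) and of all 4 members in macrophages kept their sign in every alternative run, 23 to 27 for each. They ranged from 4.26 to 6.22 for Sdc4 and from 3.24 to 4.20 for Cd44 at D1 against Ctrl. In macrophages they ranged from -4.71 to -2.84 for Sdc4, from -2.67 to -1.63 for Cd44 and from -1.56 to -0.91 for Sdc3. The order of the cell types by share of cells with time points pooled was the same for all 4 genes when cells were thinned to 1000 UMIs. Of 801 alternative values of the named pathway genes, 724 kept direction and call, 75 lost the call and 2 changed sign: Src (2.14 in the mixed libraries alone) and Cd74 from D3 to D10 (-0.50 with the pool term). The value of Src takes in a sex term that rests on the D2 libraries.

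The number of pathway genes called at D1 against Ctrl was 38, and 8 in the mixed libraries alone and 22 to 40 when 1 library was left out. For D3 against D1 it was 19, and 11 in the mixed libraries alone and 11 to 19 when 1 library was left out. For D10 against D3 it was 9, and 16 by DESeq2, 4 with thinned cells, 0 with the pool term, 4 in the mixed libraries alone and 2 to 13 when 1 library was left out. For macrophages it was 13, and 22 by DESeq2, 20 with no filter and 8 to 17 when 1 library was left out. Over all genes, 16 were called for the sort of microglia, and 59 by DESeq2, 73 with no filter, 2 with 50 cells, 5 without cluster 2 and 1 to 34 when 1 library was left out. For the sort of macrophages 1 was called, and 104 by DESeq2, 21 with no filter, 13 with thinned cells, 0 with the pool term, 12 with D3_conflict 1 added and 1 to 14 when 1 library was left out. What made these numbers differ was not tested.

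In the sort contrasts the near-zero difference of Sdc4 changed sign: in microglia to -0.11 with thinned cells and to as low as -0.25 (from -0.25 to 0.29) when 1 library was left out, and in macrophages to -0.00273 with 50 cells, -0.00717 without cluster 2 and from -0.35 to 0.47 when 1 library was left out. With the pool term Sdc1 turned to -1.29 and Cd44 to -0.0181 in macrophages. A pool term could not be separated from D1 against Ctrl, D3 against D1, the macrophage time contrast or the microglial sort. With the replicate number as a block in the mixed libraries of D1, D3 and D10 (replicate block), 11 pathway genes were called for D3 against D1 and 7 for D10 against D3, against 11 and 4 in the same libraries without it. Same-numbered libraries correlated between -0.20 and 0.12 in their deviations, and differently numbered ones between -0.21 and 0.21. With 2 mixed libraries at D10 their deviations mirror each other, so these values cannot decide whether the numbers mark a shared batch. The level of Sdc1 in microglia and late macrophages rests on single UMIs, so ratios to it are given as a rough description.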

Other observations

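In dendritic-like cells Sdc4 was also higher in the D1 and D2 than in the D3 and D10 libraries. It was at 47.5 and 84.2 CPM at D1, 95.1 and 57.1 CPM at D2, 15.9 and 16.8 CPM at D3, 0 and 9.99 CPM at D10, and 16.3 CPM at D21. Sdc1 was at 10.4 and 16.9 CPM at D1, 18.2 and 21.8 CPM at D2, 6.98 and 19.6 CPM at D3, and 0 and 2.50 CPM at D10. Cd44 overlapped between time points, from 73.7 and 165 CPM at D1 to 77.6 and 22.5 CPM at D10. These sums hold 25 to 1265 cells and were not tested. In neutrophil-like cells Cd44 was at 286 and 812 CPM at D1 and 566 and 582 CPM at D2.

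In macrophages, cells with a Sdc1 UMI had a Cd44 UMI more often than cells without, after thinning to 2000 UMIs. The share was higher in 7 of 7 libraries, D3_conflict 1 among them, by 1.45 to 18.3 percentage points (median 12.4). In D1_infiltrating 2 it was 58.1% of 310 cells against 45.7% of 1513, and in D3_mixed 3, with the smallest difference, 8.33% of 24 cells against 6.89% of 2933. Sdc1 and Sdc4 were found together more often in 6 of 7 libraries, by -0.39 to 8.56 points. Sdc1 and Sdc3 were so in 3 of 7, by -4.68 to 3.50 points. Sdc3 and Cd44 were so in 2 of 8, by -22.3 to 9.44 points (median -4.73). Sdc4 and Cd44 were so in 6 of 8, and Sdc3 and Sdc4 in 5 of 8. Cells of 1 library are no replicates. Sdc1 and Cd44 are both high in clusters 11 and 12, and the part of the clusters was not tested.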
